A study of Mus musculus with 10 samples.

Results

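The 10 genes described here form the core of the mammalian circadian clock: the period genes Per1, Per2 and Per3, the cryptochrome genes Cry1 and Cry2, the activator genes Clock and Arntl, the nuclear receptor genes Nr1d1 and Nr1d2, and the output gene Dbp. They were taken by name as a fixed list, and all 10 of them were found among the 35275 genes of the deposited table. RNA was sequenced from mechanically isolated jejunal epithelial cells of 10 C57BL/6 mice labelled adult male, all of genotype VillinCreERT2;MYO5Bflox/flox, in which the villin promoter drives a tamoxifen-inducible Cre recombinase in intestinal epithelium and the Cre deletes floxed Myo5b. Control mice 2, 4 and 5 (n = 3) received corn oil and kept Myo5b. MYO5B-knockout mice 3, 5, 6 and 7 (n = 4) received a single dose of 2 mg tamoxifen and a vehicle, and LPA-treated MYO5B-knockout mice 1, 4 and 5 (n = 3) received the same tamoxifen and 3 mg/kg lysophosphatidic acid (LPA) by intraperitoneal injection, with collection on day 4. Control mice therefore lacked not only the deletion but also the tamoxifen. The hour at which each mouse was killed is not given in the sources used here, so a difference in time of collection and a difference between groups cannot be told apart.

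The libraries held between 10949420 and 24470409 reads on genes. Control mouse 2 and MYO5B-knockout mouse 3 stood apart, with 12242 and 12601 genes detected against 17309 to 18267 in the other 8 libraries, and with 17.4% and 18.0% of reads on mitochondrial genes against 1.98% to 3.5%. Results are therefore given for all 10 libraries and for the 8 libraries without these 2, which leave 2 control, 3 MYO5B-knockout and 3 LPA-treated mice. Myo5b itself was at 16.5 to 32.0 FPKM (fragment counts divided by gene length and by library depth) in control mice and at 10.3 to 13.6 in the 7 mice given tamoxifen. Xist was at 8.41 FPKM in MYO5B-knockout mouse 3 and at 15.1 FPKM in mouse 1 of the LPA-treated group, which goes against the label male, and the label of LPA-treated mouse 1 names both vehicle and LPA. All 6 epithelial marker genes were detected in every group, at a summed 3985 to 7428 FPKM.

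In the clock, the proteins CLOCK and BMAL1 (the product of Arntl) bind E-box elements and switch on the Per, Cry, Nr1d1, Nr1d2 and Dbp genes. PER and CRY proteins then return to the nucleus and repress CLOCK and BMAL1, which closes the main loop, while the NR1D1 and NR1D2 proteins (REV-ERB alpha and beta) repress Arntl through ROR elements, which closes another. DBP and its relatives TEF and HLF bind D-box elements and pass the rhythm to output genes. In peripheral tissues the Arntl transcript peaks at about the opposite time of day to Nr1d1 and Dbp, and in the small intestine the rhythm follows feeding.

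The proximal promoters show where these elements lie. RefSeq windows (GRCm38.p6, the build of the files) were found for 9 of the 10 genes, 13 windows in all, and the 250 bases before each RefSeq start were searched on both strands for the E-box CACGTG, the D-box TTATGTAA, TTACGTAA, TTATATAA or TTACATAA, the ROR element core TAGGTCA or TGGGTCA, and the cyclic AMP response element TGACGTCA. A RefSeq start need not be the gene start listed below. The Dbp and Per1 windows shown end at 45705246 and 69098948, inside genes that begin at 45705088 and 69095217. The Dbp, Nr1d1, Clock, Per1 and Cry1 sequences are shown because these genes had the largest fitted differences between MYO5B-knockout and control mice. The Per3 sequence was added after the search because it was the only one with D-boxes. Capitals mark an element, and Clock and Per1, which have several windows, are each shown by 1.
Dbp (chr7:45704997-45705246, + strand): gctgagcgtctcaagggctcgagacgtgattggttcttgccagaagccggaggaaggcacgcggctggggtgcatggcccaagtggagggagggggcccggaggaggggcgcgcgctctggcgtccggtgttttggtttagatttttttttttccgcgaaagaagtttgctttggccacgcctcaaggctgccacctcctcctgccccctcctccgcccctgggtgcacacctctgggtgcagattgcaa
Nr1d1 (chr11:98775378-98775627, - strand): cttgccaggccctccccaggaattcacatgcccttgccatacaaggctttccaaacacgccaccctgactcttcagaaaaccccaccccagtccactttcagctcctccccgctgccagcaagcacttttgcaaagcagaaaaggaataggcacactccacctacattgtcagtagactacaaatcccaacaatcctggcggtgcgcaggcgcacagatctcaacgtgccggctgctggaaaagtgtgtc
Clock (chr5:76304549-76304798, - strand): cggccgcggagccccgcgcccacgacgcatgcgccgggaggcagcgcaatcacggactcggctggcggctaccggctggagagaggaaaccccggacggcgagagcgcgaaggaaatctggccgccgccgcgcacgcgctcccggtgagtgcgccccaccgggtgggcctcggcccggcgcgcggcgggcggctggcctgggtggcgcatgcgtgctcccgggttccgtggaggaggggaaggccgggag
Per1 (chr11:69098699-69098948, + strand): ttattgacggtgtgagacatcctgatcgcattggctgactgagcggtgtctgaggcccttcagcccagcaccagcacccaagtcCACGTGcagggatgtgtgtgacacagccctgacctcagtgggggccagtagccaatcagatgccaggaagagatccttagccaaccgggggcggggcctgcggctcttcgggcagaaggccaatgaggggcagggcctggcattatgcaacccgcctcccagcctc
Cry1 (chr10:85185055-85185304, - strand): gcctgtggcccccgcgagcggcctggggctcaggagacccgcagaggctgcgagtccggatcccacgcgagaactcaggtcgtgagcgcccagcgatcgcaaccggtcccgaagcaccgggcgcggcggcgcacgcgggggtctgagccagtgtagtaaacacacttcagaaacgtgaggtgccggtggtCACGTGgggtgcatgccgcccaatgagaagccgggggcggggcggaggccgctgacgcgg
Per3 (chr4:151044666-151044915, - strand): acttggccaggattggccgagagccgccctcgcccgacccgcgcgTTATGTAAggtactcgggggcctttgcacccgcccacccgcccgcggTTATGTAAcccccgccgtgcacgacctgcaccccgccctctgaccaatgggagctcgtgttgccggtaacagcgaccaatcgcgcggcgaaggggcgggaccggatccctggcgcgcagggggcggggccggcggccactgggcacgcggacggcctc
An E-box began 166 bases before the RefSeq start of the Per1 window shown and 60 bases before that of Cry1, and 6.02% of all 32851 windows of this length held one. The D-boxes began 205 and 158 bases before the Per3 start, and 1.43% of all windows held one. No window of the clock genes held the ROR element core or the cyclic AMP response element, which 5.38% and 1.55% of all windows held. The other 10 windows, those of Dbp and Nr1d1 included, held none of these letters, which describes the windows alone.

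With all 10 libraries, no clock gene passed the test in any comparison. The log2 of FPKM + 0.1 was compared by limma, with the 3 groups in one fit, over 15729 genes whose mean level reached 0.1 FPKM, which all 10 clock genes reached, and a gene was called at a Benjamini-Hochberg adjusted p under 0.05. The number called was 0 of 10 between MYO5B-knockout and control mice, where 2.01% of all genes were called, 0 of 10 between LPA-treated and control mice, where 2.32% were, and 0 of 10 between LPA-treated and vehicle-treated MYO5B-knockout mice, where 0% were. None had an unadjusted p under 0.05 in limma, where 17.6%, 16.4% and 2.92% of all genes had one in these comparisons, in this order. On recovered reads edgeR gave 1, 3 and 0 such clock genes (18.5%, 15.6% and 2.84% of all genes) and DESeq2 gave 3, 4 and 0 (22.9%, 19.6% and 4.29% of all genes). These counts, on only 10 genes, lie on both sides of the shares. In LPA-treated against control mice they lie above them with both tools, a difference that was not tested. After adjustment edgeR called none and DESeq2 called Dbp alone, between LPA-treated and control mice, where DESeq2 called 9.47% of all genes. In each comparison the groups overlapped for every clock gene, whereas 17.2%, 26.9% and 4.16% of all genes had groups that did not overlap.

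When control mouse 2 and MYO5B-knockout mouse 3 were left out, 5 of the 10 clock genes passed the test in at least 1 comparison, and all 5 were lower than in control mice. Dbp fell in MYO5B-knockout mice, the only member of the 10 called (2.38% of all genes were called lower and 4.95% in either direction). Dbp, Nr1d1, Nr1d2, Per2 and Per3 fell in LPA-treated MYO5B-knockout mice against control mice, 5 of 10, where 4.25% of all genes were called lower and 8.56% in either direction. Per1, Cry1, Cry2, Clock and Arntl did not pass the test in either comparison. Between LPA-treated and vehicle-treated MYO5B-knockout mice none of the 10 was called in limma, where 0% of all genes were, and 4 had an unadjusted p under 0.05, as did 10.3% of all genes. The median of the 10 log2 differences was -0.39, -1.08 and -0.65 in these comparisons, in this order, against medians of 0.21, 0.13 and -0.11 over all genes tested. The comparisons share mice and are not independent of each other, and nothing says that the mice of a group came from separate cages or days.

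**Figure D1:**
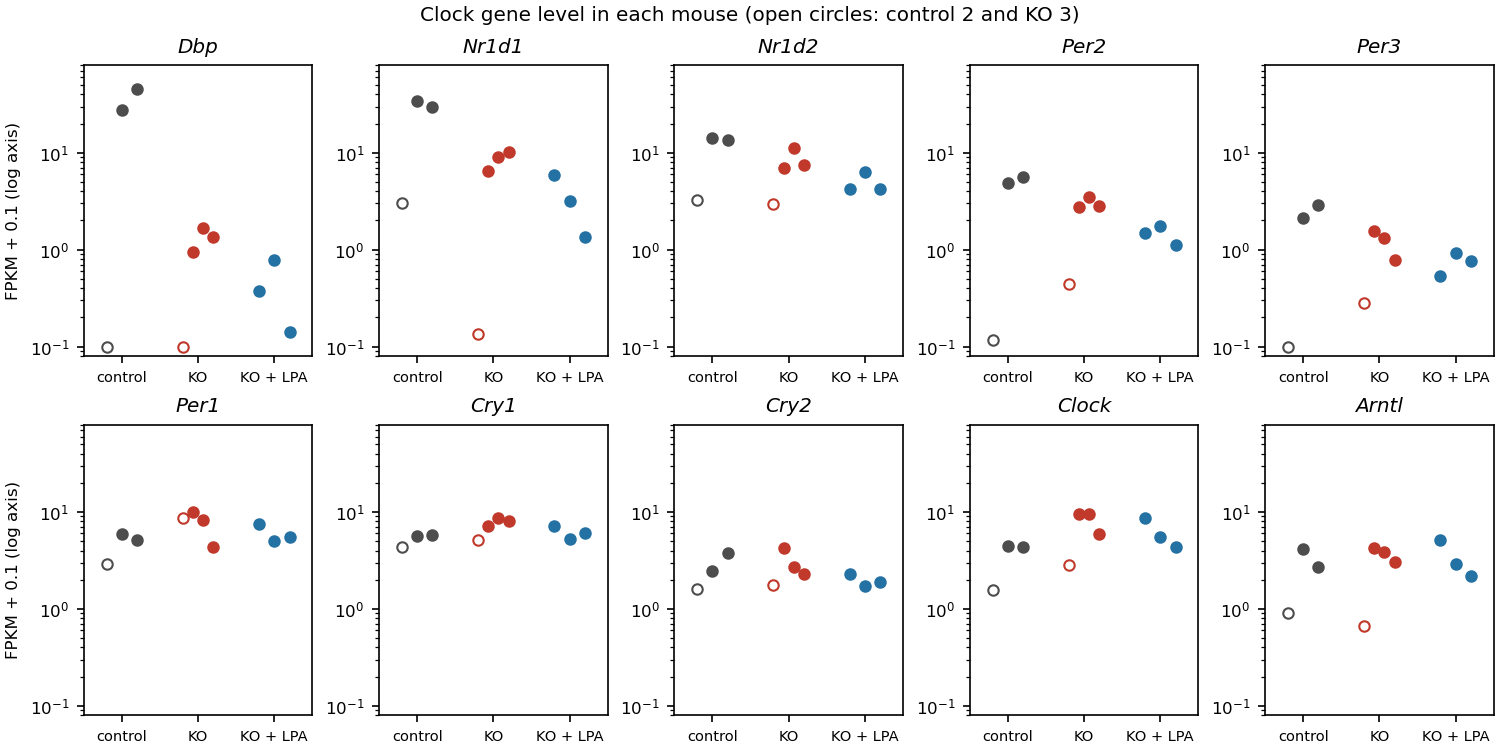
FPKM + 0.1 of the 10 clock genes on a log axis, with a point for each control, MYO5B-knockout (KO) and LPA-treated MYO5B-knockout (KO + LPA) mouse, and open circles for control mouse 2 and MYO5B-knockout mouse 3. Among the filled points, Dbp, Nr1d1, Nr1d2 and Per2 step down from control to KO to KO + LPA without overlap, whereas the Arntl points of the 3 groups overlap.

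Values by mouse are listed below in the order control mice 2, 4 and 5, vehicle-treated knockout mice 3, 5, 6 and 7, and LPA-treated knockout mice 1, 4 and 5. Dbp encodes the PAR bZIP factor through which the clock drives many output genes (ENSMUSG00000059824, chromosome 7 from 45705088 to 45710155 in GRCm38). It was present at 0, 27.4 and 44.9 FPKM in the controls, 0, 0.843, 1.56 and 1.24 in the vehicle-treated knockouts and 0.274, 0.678 and 0.0419 in the LPA-treated knockouts. Control mice 4 and 5 lay far above every other mouse. The transcript rested on 754 and 1406 reads in these control mice, on 26, 57 and 50 reads in MYO5B-knockout mice 5, 6 and 7, and on 12, 21 and 1 reads in the LPA-treated mice. On 8 libraries the mean of the controls was 29.8 times that of MYO5B-knockout mice and 109 times that of LPA-treated mice. The log2 difference of FPKM + 0.1 was -4.78 (SE 0.68, limma's adjusted p = 0.0165) and -6.67 (SE 0.68, limma's adjusted p = 0.00359), and the constant added before the log makes these smaller than the fold of the means. With all 10 libraries the differences were -2.88 (SE 1.89, limma's adjusted p = 0.466) and -3.85 (SE 2.02, limma's adjusted p = 0.376).

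Control mouse 2 had no Dbp reads, and leaving out this mouse alone from the 10 libraries was enough for Dbp to be called in both comparisons. Among the 1545 genes with a mean between 20 and 50 FPKM in control mice 4 and 5, 9 genes (0.583%), Dbp among them, had 0 reads in control mouse 2. A count of 0 allows up to 0.152 FPKM of Dbp in that library. MYO5B-knockout mouse 3 also had 0 reads, at a level where 34.2% of genes (those with 0.5 to 2 FPKM in MYO5B-knockout mice 5, 6 and 7) had none. Dbp overlaps Sphk2 on the opposite strand over 689 bases, and Sphk2 held 933% as many reads over the 10 libraries. Sphk2 had 42.5 and 46.3 FPKM in control mice 4 and 5 against 25.8 to 38.6 in the other 6 of the 8 libraries, so its spread was much smaller than that of Dbp. In control mouse 2 and MYO5B-knockout mouse 3, both with 0 Dbp reads, Sphk2 was at 70.6 and 34.6 FPKM. Nothing says that reads were counted by strand, and the library protocol does not mark it.

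Nr1d1, the gene of REV-ERB alpha (ENSMUSG00000020889, chromosome 11 from 98767932 to 98775333), had the next largest difference. It was present at 2.89, 34.0 and 29.2 FPKM in the controls, 0.0336, 6.35, 8.97 and 9.97 in the vehicle-treated knockouts and 5.81, 3.08 and 1.24 in the LPA-treated knockouts. On 8 libraries the 3 groups did not overlap, in the order control, MYO5B-knockout and LPA-treated. The MYO5B-knockout mean was 3.75-fold below the control mean, a log2 difference of -1.92 that missed the threshold (SE 0.56, limma's adjusted p = 0.0895). In LPA-treated mice the mean was 9.36-fold lower, with a log2 difference of -3.43 (SE 0.56, limma's adjusted p = 0.0156). Nr1d1 overlaps Thra on the opposite strand over 1075 bases, and Thra held 118.8% as many reads. Thra was also lower in the 6 mice of the 8 libraries that received tamoxifen, at 5.26 to 14.0 FPKM against 25.5 and 28.5 in control mice 4 and 5, so part of the Nr1d1 difference cannot be told apart from Thra without strand.

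Nr1d2, the gene of REV-ERB beta (ENSMUSG00000021775, chromosome 14 from 18204054 to 18239127), moved in the same direction by less. It was at 3.16, 14.3 and 13.4 FPKM in the controls, 2.84, 6.85, 11.1 and 7.37 in the vehicle-treated knockouts and 4.12, 6.20 and 4.12 in the LPA-treated knockouts. Again the 3 groups did not overlap on 8 libraries. The log2 difference from control mice was -0.74 in MYO5B-knockout mice (SE 0.29, limma's adjusted p = 0.158) and -1.53 in LPA-treated mice (SE 0.29, limma's adjusted p = 0.0233). No other gene of the annotation overlaps Nr1d2.

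The period genes, whose proteins repress CLOCK and BMAL1, are described next. Per2 (ENSMUSG00000055866, chromosome 1 from 91415982 to 91459324) was at 0.0155, 4.80 and 5.53 FPKM in the controls, 0.344, 2.63, 3.41 and 2.71 in the vehicle-treated knockouts and 1.38, 1.66 and 1.03 in the LPA-treated knockouts. Apart from control mouse 2 and MYO5B-knockout mouse 3, the groups were again in separate ranges. On 8 libraries Per2 was lower by 1.77-fold in MYO5B-knockout mice, a log2 difference of -0.81 (SE 0.29, limma's adjusted p = 0.138). It was 3.80-fold lower in LPA-treated than in control mice, with a log2 difference of -1.87 (SE 0.29, limma's adjusted p = 0.0136).

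Per3 (ENSMUSG00000028957, chromosome 4 from 151003652 to 151044665), the gene with the D-boxes shown above, was at 0, 2.05 and 2.77 FPKM in the controls, 0.183, 1.44, 1.22 and 0.680 in the vehicle-treated knockouts and 0.436, 0.819 and 0.663 in the LPA-treated knockouts. Control mice 4 and 5 lay above all other mice, while the ranges of the MYO5B-knockout and LPA-treated mice overlapped. The log2 difference from control mice on 8 libraries was -1.09 (SE 0.42, limma's adjusted p = 0.159) in MYO5B-knockout and -1.78 (SE 0.42, limma's adjusted p = 0.0439) in LPA-treated mice. Per3 lies on the same strand as Camta1 over 41014 bases, and Camta1 held 67.9% as many reads.

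Per1 (ENSMUSG00000020893, chromosome 11 from 69095217 to 69109960), which responds to acute signals as well as to the clock, did not share this pattern. It was at 2.77, 5.85 and 5.09 FPKM in the controls, 8.52, 9.88, 8.16 and 4.28 in the vehicle-treated knockouts and 7.47, 4.86 and 5.41 in the LPA-treated knockouts. MYO5B-knockout mouse 7 lay below control mice 4 and 5, so the groups overlapped. The log2 difference on 8 libraries was 0.36 (SE 0.38, limma's adjusted p = 0.580) in MYO5B-knockout and 0.09 (SE 0.38, limma's adjusted p = 0.900) in LPA-treated mice against control mice, and the second turned to -0.04 with median-ratio scaling.

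The cryptochromes, the partners of the PER proteins, lay between 1.5 and 8.65 FPKM in all 10 mice. Cry1 (ENSMUSG00000020038, chromosome 10 from 85131702 to 85185054) was at 4.27, 5.56 and 5.68 FPKM in the controls, 5.09, 7.04, 8.65 and 8.05 in the vehicle-treated knockouts and 7.09, 5.20 and 5.95 in the LPA-treated knockouts. MYO5B-knockout mice 5, 6 and 7 lay above the control mice, with a log2 difference of 0.48 (SE 0.21, limma's adjusted p = 0.204), while the LPA-treated mice spanned control levels. Cry2 (ENSMUSG00000068742, chromosome 2 from 92403646 to 92434043) was at 1.5, 2.37 and 3.68 FPKM in the controls, 1.68, 4.19, 2.61 and 2.19 in the vehicle-treated knockouts and 2.21, 1.61 and 1.81 in the LPA-treated knockouts. The LPA-treated mice lay below control mice 4 and 5, by a log2 difference of -0.64 that did not pass the test (SE 0.36, limma's adjusted p = 0.297).

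No activator gene passed the test. Clock (ENSMUSG00000029238, chromosome 5 from 76212177 to 76304548) was at 1.48, 4.40 and 4.26 FPKM in the controls, 2.75, 9.53, 9.53 and 5.89 in the vehicle-treated knockouts and 8.49, 5.46 and 4.29 in the LPA-treated knockouts. MYO5B-knockout mice 5, 6 and 7 were above control mice 4 and 5, with a log2 difference of 0.89 that did not pass the test (SE 0.35, limma's adjusted p = 0.159). Arntl (ENSMUSG00000055116, chromosome 7 from 113207465 to 113314122) was at 0.811, 4.05 and 2.64 FPKM in the controls, 0.566, 4.11, 3.72 and 2.93 in the vehicle-treated knockouts and 5.02, 2.81 and 2.07 in the LPA-treated knockouts. The 3 groups spanned about the same range of Arntl, and in both libraries with few detected genes it was low. The log2 difference of Arntl from control mice on 8 libraries was 0.12 (SE 0.41, limma's adjusted p = 0.885) in MYO5B-knockout and -0.08 (SE 0.41, limma's adjusted p = 0.919) in LPA-treated mice, an error too wide to show that the levels were alike.

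**Figure D2:**
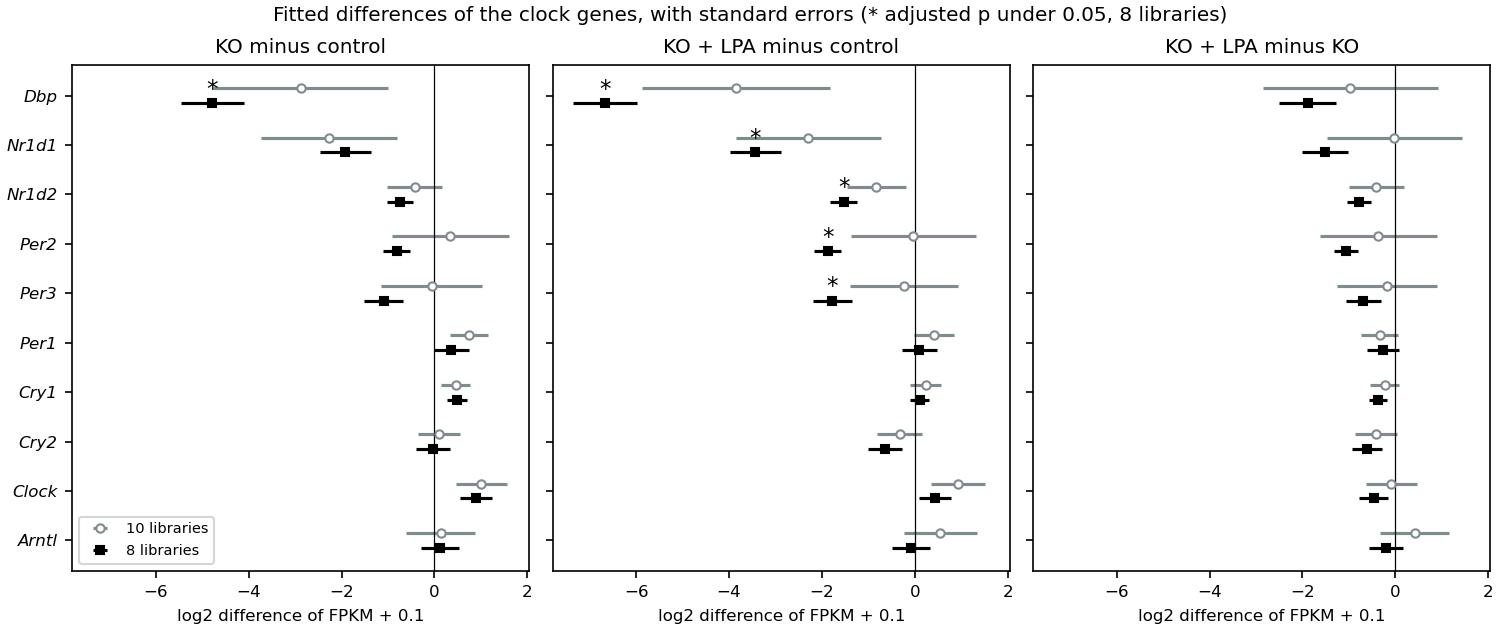
Fitted log2 differences of FPKM + 0.1 for the 10 clock genes in the 3 comparisons, with standard errors, from 10 libraries (open circles) and from 8 libraries (squares), and asterisks for an adjusted p under 0.05 on 8 libraries. Dbp, at -4.78 and -6.67, lies farthest from 0 in both comparisons with control mice, and the standard errors of Dbp, Nr1d1, Per2 and Per3 shrink when the 2 libraries are left out.

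On 8 libraries, the groups did not overlap for 7 of the 10 genes between MYO5B-knockout and control mice. Nr1d1, Nr1d2, Dbp, Per2 and Per3 were the 5 lower genes (20.5% of all genes were lower without overlap), and Cry1 and Clock were the 2 higher ones (35.5% of all genes). Between LPA-treated and control mice, 6 of the 10 were lower without overlap, the same 5 and Cry2, against 18.7% of all genes. With 2 control mice such separation is common, as these shares show, and the share for the higher genes exceeds that of the members.

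Within a library, the ratio of a gene to Arntl depends little on the library's scaling. The log2 ratio of Dbp to Arntl, both as FPKM + 0.1, was 2.73 and 4.04 in control mice 4 and 5. It was -2.16, -1.20 and -1.18 in MYO5B-knockout mice 5, 6 and 7 and -3.78, -1.90 and -3.93 in LPA-treated mice 1, 4 and 5. Dbp thus exceeded Arntl per length in these 2 control mice and was below it in every other mouse, including control mouse 2 (-3.19) and MYO5B-knockout mouse 3 (-2.74). The log2 ratio of Nr1d1 to Arntl was 3.04 and 3.42 in control mice 4 and 5, 0.61, 1.25 and 1.73 in MYO5B-knockout mice 5, 6 and 7, and 0.21, 0.13 and -0.69 in LPA-treated mice 1, 4 and 5. It was 1.72 in control mouse 2 and -2.32 in MYO5B-knockout mouse 3. The log2 ratio of Per2 to Arntl was 0.24 and 1.04 in control mice 4 and 5, between -0.62 and -0.11 in MYO5B-knockout mice 5, 6 and 7, and between -1.79 and -0.72 in the LPA-treated mice. It was -2.98 in control mouse 2, the lowest of all 10 mice, and -0.58 in MYO5B-knockout mouse 3. For these 3 ratios the 8 libraries fell in the order control, MYO5B-knockout and LPA-treated, with an overlap between the last 2 groups for Dbp. The log2 ratio of Nr1d2 to Arntl was 1.79 and 2.31 in control mice 4 and 5. It was 0.72 to 1.55 in MYO5B-knockout mice 5, 6 and 7 and -0.28 to 1.12 in LPA-treated mice. For Per3 the ratio was -0.95 and 0.07, -1.96 to -1.45 and -3.26 to -1.51, in the same order. For both genes the MYO5B-knockout and LPA-treated mice overlapped.

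**Figure D3:**
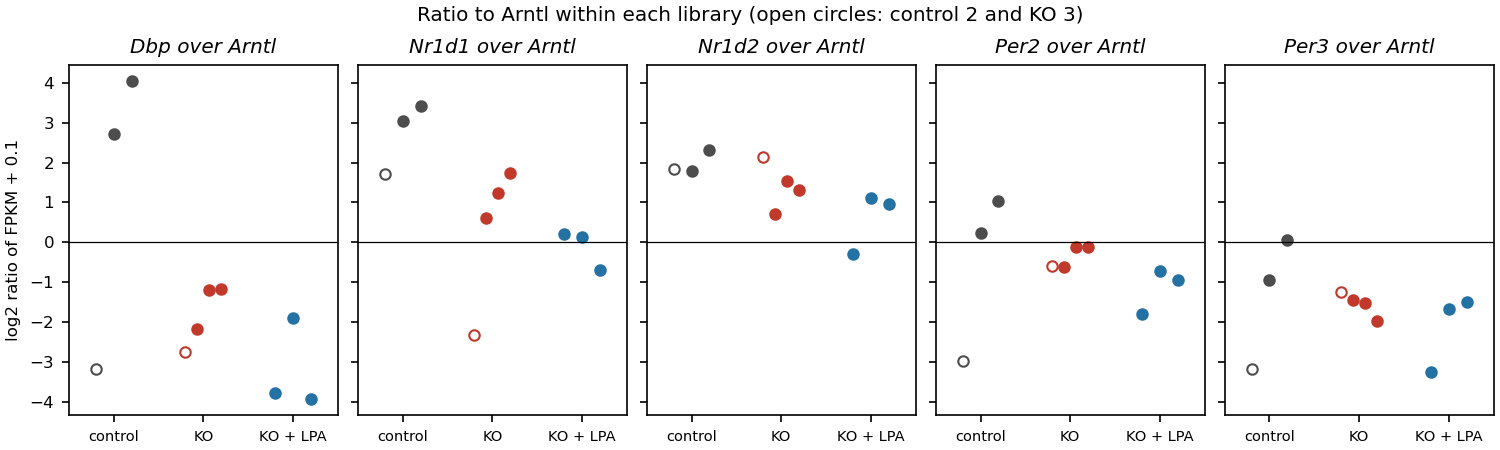
Log2 ratio of Dbp, Nr1d1, Nr1d2, Per2 and Per3 to Arntl within each library, with a point for each mouse and open circles for control mouse 2 and MYO5B-knockout mouse 3. Dbp over Arntl is above 0 in control mice 4 and 5 (2.73 and 4.04) and below 0 in the other 8 mice.

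LPA treatment of MYO5B-knockout mice was compared with vehicle to ask whether it moved these genes back. On 8 libraries all 10 clock genes had a log2 difference below 0, and none was called (limma's adjusted p from 0.437 to 0.794). Nr1d1, Nr1d2, Dbp and Per2 were lower without overlap, 4 of 10, against 5.05% of all genes. The log2 difference was -1.89 for Dbp (SE 0.61), -1.52 for Nr1d1 (SE 0.50), -1.06 for Per2 (SE 0.26) and -0.79 for Nr1d2 (SE 0.26), with limma's adjusted p = 0.437 for Per2 and 0.461 for the others. For all 4 the LPA-treated mice were thus farther from control mice 4 and 5 than the vehicle-treated mice were. Per2 was called in this comparison by DESeq2 on the recovered reads of the 8 libraries, where DESeq2 called 1.53% of all genes, and edgeR called none. With all 10 libraries the differences of the 10 genes ran from -0.97 to 0.41, with every adjusted p at 1.00 in limma.

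Other genes of the pathway were read from lists chosen with earlier results of these data known. The PAR bZIP relatives of Dbp both fell in both comparisons with control mice on 8 libraries (2 of 2 tested), and neither passed with 10 libraries. Hlf had 1.15 and 3.25 FPKM in control mice 4 and 5 against 0.0072 to 0.120 in the 6 other mice of the 8 libraries, a log2 difference of -3.73 in MYO5B-knockout mice (SE 0.52, limma's adjusted p = 0.0152). Tef had 22.7 and 27.0 FPKM in control mice 4 and 5, 9.41, 12.6 and 11.4 in MYO5B-knockout mice 5, 6 and 7, and 6.10 to 8.01 in LPA-treated mice, a log2 difference of -1.16 in MYO5B-knockout mice (SE 0.21, limma's adjusted p = 0.0319). Of the 4 output genes tested, only Usp2, a ubiquitin protease gene driven by the clock, was called. Usp2 was at 11.9, 24.6 and 31.0 FPKM in the controls, 4.77, 9.40, 9.0 and 9.81 in the vehicle-treated knockouts and 3.74, 2.42 and 4.75 in the LPA-treated knockouts. It fell in LPA-treated against control mice also with all 10 libraries (log2 difference -2.54, SE 0.45, limma's adjusted p = 0.0195), and in MYO5B-knockout mice only on 8 (-1.55, SE 0.29, limma's adjusted p = 0.0340). Wee1, with the largest difference of this list between LPA-treated and vehicle-treated mice on 8 libraries (-1.69, SE 0.96, limma's adjusted p = 0.480), Nampt and Ccrn4l (nocturnin) did not pass.

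Among further activator genes, Arntl2, a paralog of Arntl, rose in LPA-treated against control mice on 8 libraries. It had 0.022 and 0.117 FPKM in control mice 4 and 5 against 0.336 to 1.08 in the 6 other mice. The log2 difference was 2.33 (SE 0.53, limma's adjusted p = 0.0387), and Arntl2 was not called between MYO5B-knockout and control mice (2.05, SE 0.53, limma's adjusted p = 0.0698). Npas2, which can stand in for Clock, lay between 3.60 and 6.32 FPKM in all 10 mice and did not pass. Of the 4 further repressor genes tested, Bhlhe40 rose in LPA-treated against control mice (log2 difference 0.66, SE 0.16, limma's adjusted p = 0.0454), while Nfil3, which opposes DBP at D-boxes, had a log2 difference of 1.43 that missed the threshold (SE 0.37, limma's adjusted p = 0.0566). Among 10 kinase and ubiquitin ligase genes, 8 were higher and 2 lower in LPA-treated than in control mice on 8 libraries. Their median log2 difference was 0.11, against 0.13 over all genes tested. Only Csnk1e of these 10 genes was called, and it was higher (log2 difference 1.70, SE 0.38, limma's adjusted p = 0.0369). Ciart and Timeless, the repressor genes with the largest differences between MYO5B-knockout and control mice on 10 and on 8 libraries, were at log2 differences of 1.51 (SE 0.96, limma's adjusted p = 0.452) and 1.38 (SE 0.51, limma's adjusted p = 0.147), and the ubiquitin ligase gene Huwe1 was at 1.11 on 8 libraries (SE 0.43, limma's adjusted p = 0.163). With 10 libraries none of the genes named in this paragraph was called in any comparison.

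**Figure D4:**
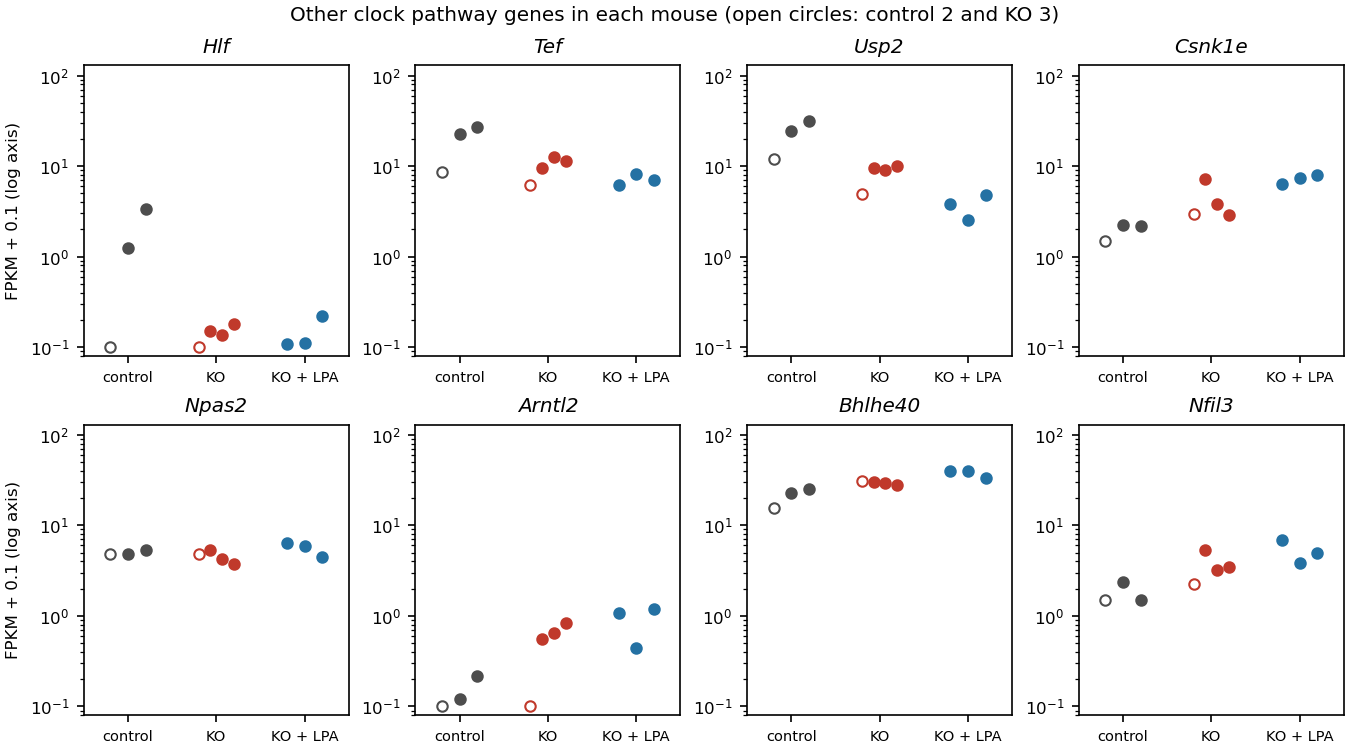
FPKM + 0.1 on a log axis of 8 other clock pathway genes in each control, MYO5B-knockout (KO) and LPA-treated (KO + LPA) mouse, with open circles for control mouse 2 and MYO5B-knockout mouse 3. Hlf, Tef and Usp2 are highest in control mice 4 and 5, Arntl2 is lowest in the control mice and MYO5B-knockout mouse 3, and Npas2 stays between 3.60 and 6.32 FPKM.

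Signals that can set or follow the intestinal clock were read in the same way. Of 12 glucocorticoid-responsive genes, Fkbp5 rose in MYO5B-knockout mice with 10 libraries (log2 difference 2.39, SE 0.51, limma's adjusted p = 0.0438), but its adjusted p was 0.0537 on 8. Tsc22d3 fell on 8 libraries in MYO5B-knockout and in LPA-treated mice (-1.65, SE 0.23, limma's adjusted p = 0.0160, and -1.32, SE 0.23, limma's adjusted p = 0.0205), and Dusp1 rose in LPA-treated mice (1.30, SE 0.20, limma's adjusted p = 0.0121). The called members thus did not share a direction, but most of the list lay above control. With 10 libraries, 11 of the 12 had a log2 difference above 0 and 1 below, in each comparison with control. On 8 libraries 10 rose and 2 fell after MYO5B loss, and 9 rose and 3 fell with LPA. The medians on 8 were 0.67 and 0.75, against 0.21 and 0.13 over all genes. A shift of the whole list was not tested. Pdk4, at a log2 difference of 3.01 between LPA-treated and control mice on 10 libraries (SE 1.37, limma's adjusted p = 0.308), and Klf9, at -1.44 between LPA-treated and vehicle-treated mice on 8 (SE 0.72, limma's adjusted p = 0.468), did not pass. Of 6 jejunal transporter genes with a known daily rhythm, Slc5a1 and Slc2a5 fell in MYO5B-knockout mice on 8 libraries, and Slc5a1, Slc2a5, Slc2a2 and Slc15a1 fell in LPA-treated mice. In LPA-treated against control mice the log2 difference on 8 libraries was -3.60 for the fructose transporter gene Slc2a5 (SE 0.57, limma's adjusted p = 0.0151), -3.02 for Slc2a2 (SE 0.45), -2.44 for the peptide transporter gene Slc15a1 (SE 0.58) and -2.05 for the sodium-glucose transporter gene Slc5a1 (SE 0.28). With 10 libraries Slc2a5 alone was called in MYO5B-knockout mice and Slc5a1 and Slc2a5 in LPA-treated mice.

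Markers of other cells differed between the same groups. The 12 leukocyte markers summed to 1431 to 2369 FPKM in control mice, 50.3 to 943 FPKM in MYO5B-knockout mice and 141 to 229.9 FPKM in LPA-treated mice. Most of the control sums was Cd74 (1067, 2058 and 1945 FPKM in control mice 2, 4 and 5). Control mice 4 and 5, with high Dbp, had the highest sums. Control mouse 2, with 0 Dbp reads, also had a sum above that of every MYO5B-knockout and LPA-treated mouse, at 1431 FPKM. Single markers went both ways between control mouse 2 and MYO5B-knockout mouse 7. Ptprc was at 0.367 and 1.57 FPKM in these mice, in this order, and Cd3e at 2.9 and 4.66. Cd7 was at 21.6 and 10.1 FPKM and Gzma at 319.7 and 91.4. Of the 11 leukocyte markers tested, 9 were lower and 2 higher in MYO5B-knockout than in control mice on 8 libraries. The 7 proliferating crypt cell markers summed to 54.7 to 106 FPKM, 156 to 280 FPKM and 131 to 207 FPKM in these groups, in this order. The 8 stromal and endothelial markers summed to 3.41 to 5.42 FPKM, 1.96 to 4.86 FPKM and 6.16 to 12.2 FPKM. The 8 enterocyte markers summed to 30560 to 40400 FPKM in control mice, 14570 to 26670 FPKM in MYO5B-knockout mice and 23220 to 44230 FPKM in LPA-treated mice. Fabp1 alone ran from 7871 to 10640 FPKM across the controls and from 9270 to 19390 FPKM with LPA. On 8 libraries, 3 of the 8 enterocyte markers were higher and 5 lower than control, both after MYO5B loss and with LPA. Their median log2 differences were -0.57 and -0.90, in this order, against 0.21 and 0.13 over all genes. Only Sis was called, with LPA, and it was lower (log2 difference -2.52, SE 0.33, limma's adjusted p = 0.00802). The 5 smooth muscle markers summed to 3.67 to 7.36 FPKM, 3.88 to 6.69 FPKM and 3.85 to 9.62 FPKM in control, MYO5B-knockout and LPA-treated mice. The 6 neuron and glia markers summed to 1.18 to 1.93 FPKM, 2.19 to 4.85 FPKM and 1.42 to 16.3 FPKM, with 2, 1 and 1 of the 6 at 0 in every library of the group. Their part in the clock gene differences was not tested, and in these bulk samples fewer cells of a type and less RNA per cell cannot be told apart.

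The genes most like Arntl and Dbp across the 10 libraries were found by Pearson's r of log2(FPKM + 0.1). For Arntl these were Fblim1 (0.988), Lnx2 (0.986), Polm, Atf7 and Zfp740 (each 0.985), and for Dbp they were Pgrmc1 (0.983), Mpp4 (0.979), Dpyd (0.977), Ralgps1 (0.975) and Agmo (0.973). Both rankings are shaped by the 2 libraries with few detected genes: on 8 libraries other genes led, Aldh5a1, Stat5a and Tsnax for Arntl (each 0.963) and Mocs2 (0.996), 2010106E10Rik (0.994) and Slc5a4a (0.993) for Dbp. Among the clock genes, Nr1d2 (0.943), Per3 (0.835), Nr1d1 (0.831) and Per2 (0.818) were most like Dbp over 10 libraries, and Clock (0.851) was most like Arntl. On 8 libraries the order for Dbp was Per2 (0.94), Nr1d1 (0.933), Nr1d2 (0.922) and Per3 (0.876). Clock (0.683) and Per1 (0.671) were then most like Arntl. These values describe libraries that share groups and depth.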

How the data were processed

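Poly(A) RNA libraries from jejunal epithelial cells of 10 mice were grouped by sample title. The authors deposited FPKM for 35275 genes, and the submitters' processing notes name STAR 2.5, TopHat, HTSeq 0.6.1 and DESeq2 with GRCm38. Read counts deposited by the authors for 63 values equalled the reads recovered here from FPKM and the deposited gene length, within 0.01 of a whole number. All of these values came from MYO5B-knockout and LPA-treated mice, so the recovered reads of control mice were not checked in this way. Between 10949420 and 24470409 reads lay on genes, which sets the precision of low values. Floors are 3 reads and cover counting error only. The library protocol does not mark strand.

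The log2 of FPKM + 0.1 was fitted for genes whose mean level reached 0.1 FPKM, with limma 3.58.1 (R 4.3.3), with a trended variance, two-sided tests and Benjamini-Hochberg adjustment at 0.05. The scripts were tested on simulated data. Alternatives were edgeR 4.0.16 and DESeq2 1.42.0 on recovered reads, other scalings, pseudocounts, filters and libraries left out. The members and lists were chosen with earlier results of these data known. All 10 members are described. Of other lists, called genes and the one with the largest difference were to be named, and likeness was given for the 5 leading genes. Promoters were chosen by the size of the difference between MYO5B-knockout and control mice with all 10 libraries. Deposited tables of the authors' own enrichment results (p-values and ratios) were not used. Some genes of these lists are not reported here.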

Additional observations from a re-analysis of the deposited data

How the results depend on the processing

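Which mice were fitted changed the calls. The limma model of the 10 libraries as deposited called no clock gene. Between MYO5B-knockout and control mice, 1 clock gene was called on the 8 libraries and 2 when the 2 libraries that stood apart had a covariate, where 4.95% and 15.6% of all genes were called. Between LPA-treated and control mice these numbers were 5 and 3, with 8.56% and 11.4% of all genes, and DESeq2 on 10 libraries called 1 (Dbp), with 9.47%. Alternatives chosen after seeing the data left out the same 2 libraries: edgeR called 2, 0 and 5 clock genes in MYO5B-knockout against control, LPA-treated against MYO5B-knockout and LPA-treated against control mice, DESeq2 called 5, 1 and 5, and median-ratio scaling gave 1, 0 and 5. Of all genes, edgeR called 7.32%, 0% and 10.7%, DESeq2 called 15.2%, 1.53% and 17.6%, and median-ratio scaling gave 6.2%, 0% and 9.57%. Single mice were also left out, any mouse from 10 libraries and only MYO5B-knockout or LPA-treated mice from 8. Between 0 and 2 clock genes were then called in MYO5B-knockout and between 0 and 5 in LPA-treated against control mice. From 10 libraries, leaving out control mouse 2 alone gave the call of Dbp in both comparisons (1 and 1, with 1.59% and 2.09% of all genes). From 8 libraries, leaving out MYO5B-knockout mouse 5 or mouse 6 ended the call of Dbp in MYO5B-knockout mice. Leaving out any LPA-treated mouse, or MYO5B-knockout mouse 5 or 6, ended the call of Per3 in LPA-treated mice, whereas Dbp, Nr1d1, Nr1d2 and Per2 kept theirs. The causes were not tested.

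Dbp, Nr1d1, Nr1d2 and Clock kept their direction against control mice under every alternative run, but not their size. In MYO5B-knockout against control mice Dbp ran from -5.70 without control mouse 2 to -1.29 without control mouse 5, and Nr1d1 from -3.41 when control mouse 2 was left out to -0.78 when MYO5B-knockout mouse 3 was. In LPA-treated against control mice Dbp ran from -7.25 to -2.26 and Nr1d1 from -3.94 to -1.68. Nr1d2 ran from -1.12 to -0.044 in MYO5B-knockout and from -1.73 to -0.46 in LPA-treated against control mice. Clock, which was higher, ran from 0.51 to 1.39 and from 0.155 to 1.18 in the same order. Several other genes changed sign. For MYO5B-knockout against control mice, the log2 difference turned negative for Per2 (-0.18 at a pseudocount of 1, -0.31 with quantile normalization, -0.78 with edgeR, -0.80 with DESeq2), for Cry2 (-0.22 with quantile normalization, -0.18 with edgeR, -0.21 with DESeq2, -0.19 with median-ratio scaling) and for Arntl (-0.18, -0.074, -0.11 and -0.15 in the same order, and -0.049 with the covariate). On 8 libraries it was -0.81 and -0.034 for Per2 and Cry2. It turned positive for Per3 (0.86 at a pseudocount of 0.01 and 0.46 without the 2 libraries with Xist). With edgeR, DESeq2 and median-ratio scaling on 8 libraries, Per2 was at -1.02, -1.06 and -1.04, Cry2 at -0.25, -0.28 and -0.26, and Arntl at -0.10, -0.14 and -0.11. For LPA-treated against control mice, Cry1 turned to -0.10 with quantile normalization and with edgeR and to -0.14 with DESeq2 and with median-ratio scaling, Arntl to -0.081 on 8 libraries and -0.18 with the covariate, and Per2 and Per3 to 0.61 and 0.71 at a pseudocount of 0.01. On 8 libraries edgeR, DESeq2 and median-ratio scaling gave -0.018, -0.031 and -0.044 for Per1, -0.015, -0.027 and -0.035 for Cry1 and -0.16, -0.17 and -0.21 for Arntl. For LPA-treated against MYO5B-knockout mice, Arntl turned to -0.20 on 8 libraries, -0.54 without the 2 libraries with Xist, -0.13 with the covariate and -0.055, -0.034 and -0.10 with edgeR, DESeq2 and median-ratio scaling on 8 libraries, and Nr1d1 to 0.34 at a pseudocount of 0.01. The mouse number as a replicate block (consensus correlation -0.02) turned Nr1d1 to 0.0049 in that comparison and changed no call. The number is not known to pair mice.

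With single mice left out, differences that changed sign ranged from -1.50 to 1.31 (Per2), -1.60 to 0.82 (Per3), -0.29 to 0.40 (Cry2) and -0.50 to 0.75 (Arntl) in MYO5B-knockout against control mice. In LPA-treated against MYO5B-knockout mice they ranged from -2.02 to 0.56 (Nr1d1), -0.98 to 0.12 (Per3), -0.74 to 0.13 (Clock) and -0.54 to 0.69 (Arntl). In LPA-treated against control mice they ranged from -0.087 to 0.62 (Per1), -2.02 to 0.93 (Per2), -1.96 to 0.64 (Per3), -0.015 to 0.34 (Cry1) and -0.42 to 1.01 (Arntl). The median log2 difference of all genes between MYO5B-knockout and control mice was 0.29 as deposited and 0.04 with median-ratio scaling.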
